A study of Mus musculus with 10 samples.

Results

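The BCL2 family governs cell death at the mitochondrion, and 10 of its genes were followed in macrophages of lung metastases and of normal lung. They were taken by name from the 24538 genes counted in each library. Of the 10, 5 encode survival proteins (Bcl2, Bcl2l1, Mcl1, Bcl2a1b and Bcl2a1d) and 5 encode death proteins, which are the effectors Bax and Bak1 and the BH3-only members Bid, Bcl2l11 and Bbc3.

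All cells came from wild type C57BL6/J mice aged 8 to 10 weeks. For the metastasis group, female mice of 6 to 8 weeks received cells of the E0771-LG mammary tumour line, syngeneic with the host, into the tail vein. Metastasis-associated macrophages (MAMs, 5 libraries) were sorted as CD45+F4/80+LY6C-MRC1+ cells of high forward scatter that carried CD11B and lacked CD11C, from dissected metastases pooled over 2 to 4 mice. Resident alveolar macrophages (RAMs, 5 libraries) came from normal lungs and passed the same gate, except that they carried CD11C and lacked CD11B. Alpha-amanitin and actinomycin D, which stop transcription, were present while the tissue was digested. The site (metastasis or normal lung) and the macrophage subset (CD11B+CD11C- or CD11B-CD11C+) changed together, so their parts in any difference cannot be told apart. Each library held between 50746305 and 87523247 counts on genes.

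The labelled macrophage types were checked against their markers. Itgam, the gene of CD11B, had 5848 to 6844 CPM (counts scaled to a common library total) in MAMs against 59.5 to 72.2 in RAMs, and Itgax, the gene of CD11C, had 145 to 240.0 CPM against 879.8 to 1110.4. Adgre1 (F4/80), Mrc1 and Ptprc (CD45) had at least 214 CPM in each of the 10 libraries. All 7 markers of monocyte-derived macrophages were higher in MAMs, where their most abundant gene, C1qb, had 1953 to 2676 CPM against 17.1 to 24.2 in RAMs. Of 9 alveolar macrophage markers, 8 were called lower in MAMs by the rule given below. The most abundant in RAMs, Chil3, had 89.1 to 118 CPM in MAMs against 7541 to 10109.6 in RAMs. The marker not called, Marco, was lower by less than 2-fold. It had 89.7 to 389 CPM in MAMs against 284 to 531 in RAMs, and was named after its values were seen. Differences are given as log2 fold changes of MAMs over RAMs. A gene was called differentially expressed when its fold change was over 2 and its adjusted p was under 0.05. By that rule all 7 monocyte-derived markers were called higher and 8 of 9 alveolar markers lower, beside 15.3% and 15.1% of all genes tested.

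Survival members of the family bind the death members and keep the outer mitochondrial membrane closed. Bax and Bak1, once freed or activated, form pores in that membrane through which cytochrome c escapes and switches on caspases, and BH3-only members start this by engaging either side. Mcl1 and the A1 proteins encoded by the Bcl2a1 copies are known as survival factors of myeloid cells. Much of the control acts on the proteins, which were not measured here.

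All 10 members passed the filter on low values. Among survival members, 2 of 5 were called higher in MAMs, Bcl2 and Bcl2l1, and 0 were called lower in edgeR's test, DESeq2 or limma. Bcl2a1d alone was lower at an unadjusted p under 0.05, and it passed the adjusted p at a fall of less than 2-fold. Among death members, 3 of 5 were called higher, Bax, Bak1 and Bid, and 0 were called lower by edgeR, DESeq2 or limma, or were lower at an unadjusted p under 0.05. Of the 11571 genes tested, 15.3% were called higher and 15.1% lower, and by the adjusted p alone 28.9% were higher and 27.3% lower. DESeq2 called the same 5 members, and under upper-quartile normalization Bax was under 2-fold, which left 2 death members. The libraries of both groups did not overlap in CPM for 6 of the 10 members, against 44.9% of all genes tested. The median log2 fold change was 0.14 over survival members and 1.12 over death members, beside -0.02 over all genes tested.

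Bcl2 showed the widest difference of the 10 members. It encodes the survival protein that names the family. Its level was 47.6, 52.99, 61.3, 56.9 and 67.6 CPM in MAM replicates 1 to 5 and 3.84, 2.28, 2.298, 2.96 and 6.95 CPM in RAM replicates 1 to 5. Every MAM library stood far above every RAM library, and RAM replicate 5 was the highest of its group. The mean was 57.3 ± 7.66 CPM in MAMs and 3.67 ± 1.94 in RAMs (SD, n = 5 each), a fold change of 15.7. The standard error (SE) of its log2 fold change was 0.289 (adjusted p = 1.42e-08 by edgeR, quasi-likelihood test, Benjamini-Hochberg method). Per length, as FPKM, in which fragments are divided by transcript length and sequencing depth, Bcl2 had 8.77, 10.5, 14.8, 12.2 and 12.7 in MAMs and 1.22, 1.08, 0.872, 0.869 and 0.8698 in RAMs. On that scale RAM replicate 5 was not the highest RAM library, so its higher count was not matched in the FPKM table. On log2(FPKM + 1), where the pseudocount is as large as the RAM level, the log2 difference was 2.67. Bcl2 lies at chr1:106538178-106714274 on the minus strand of GRCm38, and an antisense transcript, D630008O14Rik, shares exon bases with it. Since the sources used here do not state a strand setting for the counting, reads of bases shared by genes on opposite strands cannot be assigned.

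Bcl2l1 encodes BCL-XL, a survival protein that holds back both effectors. Its level was 94.7, 111, 107, 129 and 123 CPM in MAMs and 32.8, 28.7, 26.7, 31.97 and 20.9 CPM in RAMs, in the order of replicates 1 to 5. The groups were well apart, and the lowest MAM library was above the highest RAM library. The log2 fold change was 2.00 (SE 0.133, adjusted p = 5.03e-09 in edgeR's test). The gene spans chr2:152780668-152831728 on the minus strand, and no other annotated gene overlaps it.

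Mcl1, the survival gene with the highest level, encodes a short-lived protein. Its level was 1316, 1243, 1192, 1419 and 1225 CPM in MAMs and 1148, 1154, 1214, 1333 and 1265 CPM in RAMs. The groups overlapped, with only MAM replicate 4 above all RAM libraries. The log2 fold change was 0.06 with a standard error of 0.0682 (adjusted p = 0.444 in edgeR's test), and it was -0.10 under upper-quartile normalization. Mcl1 stands at chr3:95658788-95663176 on the plus strand.

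The regions around the start sites of Bcl2, Bcl2l1, Bax and Bcl2l11 are shown because the first 3 genes were higher in MAMs while Bcl2l11 did not pass the test. RefSeq start sites on GRCm38.p6 gave windows of 300 bases, 250 before the start and 50 after it, for all 10 members (15 windows). Each was searched on both strands for the interferon-stimulated response element, the gamma-activated site TTCNNNGAA, the kappaB motif, the FOXO letters GTAAACA and the p53 half-site. Matches stood in 0, 0, 2, 2 and 1 windows of the members in that order, and among 32851 windows of all genes in 0.171%, 8.30%, 8.46%, 3.65% and 8.36%. The kappaB motif was in 1 window each of Bcl2l1 and Bbc3, with 2 overlapping matches in the latter, the FOXO letters in 1 window each of Bcl2l11 and Bbc3, and the p53 half-site in that of Bax. Bcl2l1 had 3 windows and Bcl2l11 had 2, and for each the 1 window with a match is printed, the others having none. A match describes letters only, and no binding was measured. The windows read 5′ to 3′ along the gene, and capitals mark the kappaB motif in Bcl2l1, the p53 half-site in Bax and the FOXO letters in Bcl2l11.
Bcl2, chr1:106714241-106714540, minus strand: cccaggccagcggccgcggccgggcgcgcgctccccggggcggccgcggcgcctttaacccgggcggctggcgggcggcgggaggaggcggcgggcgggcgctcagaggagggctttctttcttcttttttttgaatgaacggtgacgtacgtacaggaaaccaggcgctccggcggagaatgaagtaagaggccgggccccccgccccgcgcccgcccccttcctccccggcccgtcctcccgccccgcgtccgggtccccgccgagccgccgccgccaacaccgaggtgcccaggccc
Bcl2l1, chr2:152830668-152830967, minus strand: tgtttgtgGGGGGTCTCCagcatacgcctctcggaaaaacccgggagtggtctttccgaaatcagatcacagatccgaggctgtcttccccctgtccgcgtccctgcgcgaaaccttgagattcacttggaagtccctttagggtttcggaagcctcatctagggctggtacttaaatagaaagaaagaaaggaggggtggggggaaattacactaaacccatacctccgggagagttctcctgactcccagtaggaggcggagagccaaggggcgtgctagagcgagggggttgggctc
Bax, chr7:45466849-45467148, minus strand: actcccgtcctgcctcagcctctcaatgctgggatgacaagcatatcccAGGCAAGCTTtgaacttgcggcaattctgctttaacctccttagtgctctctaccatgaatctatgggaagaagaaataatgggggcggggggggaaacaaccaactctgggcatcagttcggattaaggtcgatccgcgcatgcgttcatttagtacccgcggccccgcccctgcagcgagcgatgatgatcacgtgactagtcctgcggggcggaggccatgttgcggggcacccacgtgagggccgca
Bcl2l11, chr2:128125788-128126087, plus strand: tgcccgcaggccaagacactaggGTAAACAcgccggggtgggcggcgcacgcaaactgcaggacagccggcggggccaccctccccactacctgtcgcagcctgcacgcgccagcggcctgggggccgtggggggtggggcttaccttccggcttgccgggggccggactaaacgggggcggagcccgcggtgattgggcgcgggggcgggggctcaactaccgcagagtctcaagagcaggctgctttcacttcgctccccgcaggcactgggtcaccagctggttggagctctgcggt

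Bcl2a1b and Bcl2a1d are members of a cluster of near-identical copies that encode A1, a survival protein of blood cells. The coding sequences of Bcl2a1a, Bcl2a1b and Bcl2a1d are each 519 bases long. Bcl2a1b and Bcl2a1d are identical at 513 of these bases, Bcl2a1a and Bcl2a1d at 512, and Bcl2a1a and Bcl2a1b at 508. The first 90 coding bases, from the transcripts of GENCODE M21 on GRCm38, are shown because they hold 6 of the 12 positions at which the 3 copies differ, in capitals.
Bcl2a1a, chr9:88957051-88957140, plus strand: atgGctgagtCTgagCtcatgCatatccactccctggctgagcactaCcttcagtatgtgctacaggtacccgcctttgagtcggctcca
Bcl2a1b, chr9:89199360-89199449, plus strand: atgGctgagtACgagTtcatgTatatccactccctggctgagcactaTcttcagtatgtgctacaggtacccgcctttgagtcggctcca
Bcl2a1d, chr9:88731630-88731719, minus strand: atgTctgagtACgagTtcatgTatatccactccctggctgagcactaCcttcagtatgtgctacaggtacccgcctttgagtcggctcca

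Elsewhere the copies give single reads that cannot be assigned. Of all stretches of 100 bases, the read length, 54.7% in the Bcl2a1d transcript, 43.5% in Bcl2a1a and 31.1% in Bcl2a1b occur unchanged in another copy. These shares are for single reads. Reads were paired, so a shared read may still be assigned through its mate. The authors counted uniquely mapped reads, so the split between copies is uncertain, and the values of single copies are given with that limit.

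Bcl2a1b had 119, 111, 119, 88.8 and 115 CPM in MAMs and 116, 83.5, 73.1, 96.2 and 131 CPM in RAMs. The groups overlapped throughout, and MAM replicate 4 was the lowest of its group. Its log2 fold change was 0.14 (SE 0.144, adjusted p = 0.425 in edgeR's test) and -0.02 under upper-quartile normalization. Bcl2a1d had 57.9, 48.5, 40.1, 50.6 and 53.4 CPM in MAMs and 80.99, 77.5, 71.6, 69.9 and 81.9 CPM in RAMs. Every MAM library lay below every RAM library. The log2 fold change of Bcl2a1d was -0.61 (SE 0.109, adjusted p = 0.000212 in edgeR's test), short of a 2-fold fall.

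Bcl2a1a, taken in with the other family genes and outside the 10 members, had 18.99, 26.03, 19.3, 17.2 and 29.4 CPM in MAMs and 54.9, 61.5, 47.9, 40.6 and 58.7 CPM in RAMs. It was below the RAM range in all 5 MAM libraries and was called lower, at a log2 fold change of -1.25 (adjusted p = 1.5e-05 in edgeR's test). The last copy, Bcl2a1c, had at most 2 counts in any library. Bcl2a1b made up 56.7 to 66.6% of the counts of all copies in MAMs and 37.5 to 48.2% in RAMs. With the counts of all copies added into 1 gene, which leaves out only reads that mapped to several copies, the log2 fold change was -0.33 (SE 0.1002, adjusted p = 0.0117 in edgeR's test).

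**Figure D1:**
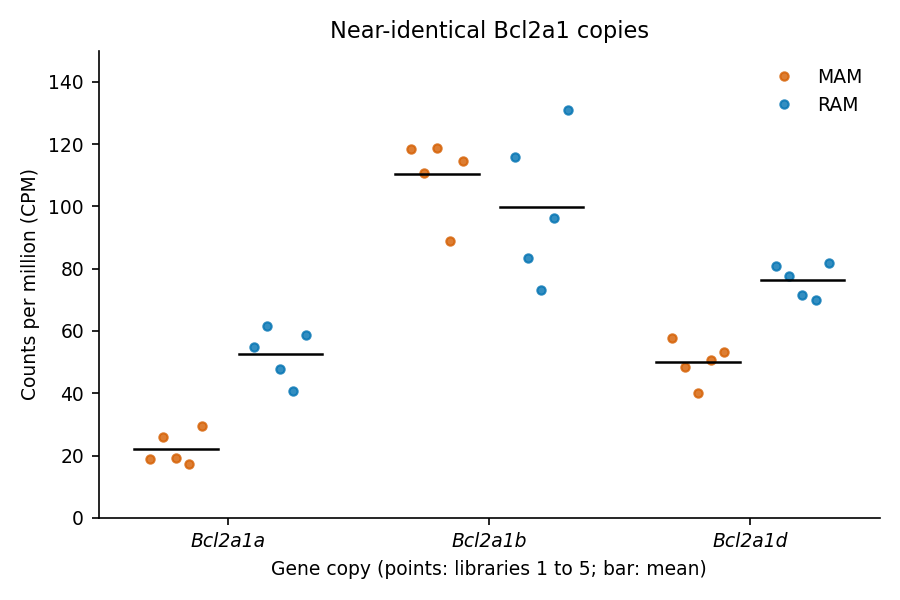
CPM of the 3 counted Bcl2a1 copies in each of the 5 MAM and 5 RAM libraries (points) with the group mean (bar), on a linear axis from 0. Bcl2a1a and Bcl2a1d lay lower in every MAM library than in any RAM library, while the Bcl2a1b groups overlapped, at 88.8 to 119 and 73.1 to 131 CPM.

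Both effectors were higher in MAMs. Bax, which moves from the cytosol to the mitochondrion when activated, had 63.7, 63.4, 58.5, 69.8 and 83.8 CPM in MAMs and 32.6, 29.5, 29.2, 29.4 and 35.3 CPM in RAMs. The highest RAM library stayed below the lowest MAM library, and replicate 5 was the highest in both groups. The fold change of Bax was 2.17 (SE of the log2 value 0.119, adjusted p = 1.01e-06 in edgeR's test), so it lay close to the 2-fold threshold, and with upper-quartile normalization the log2 fold change was 0.96. Bax lies at chr7:45461697-45466898 on the minus strand, where GENCODE places Gm45808 over some of its exon bases, and its p53 half-site match is in the window printed above.

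Bak1, the effector that sits in the mitochondrial membrane, had 258, 279.6, 239, 244 and 288 CPM in MAMs and 70.8, 72.3, 84.7, 92.5 and 112 CPM in RAMs. Every MAM library was more than 2 times the highest RAM library, which was replicate 5. The fold change was 3.03 (SE of the log2 value 0.119, adjusted p = 1.81e-08 in edgeR's test). Bak1, at chr17:27019810-27029009 on the minus strand, shares exon bases with Ggnbp1 on the opposite strand, which had 2 to 83 counts in MAM and 10 to 61 in RAM libraries.

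Of the 3 BH3-only members, only Bid was called. Bid, which links death receptors to the mitochondrion once caspase-8 cuts it, had 24.5, 28.3, 30.3, 27.1 and 39.3 CPM in MAMs and 5.19, 9.099, 6.502, 9.43 and 7.33 CPM in RAMs. All MAM libraries were above all RAM libraries, and MAM replicate 5 was the highest. The log2 fold change was 1.99 (SE 0.205, adjusted p = 7.5e-07 in edgeR's test). Bid lies at chr6:120891930-120916853 on the minus strand and shares exon bases with Bcl2l13 on the plus strand. Bcl2l13 had 1120 to 1991 counts in MAMs and 1544 to 2433 in RAMs, and its log2 fold change was -0.38.

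Bcl2l11 encodes BIM, a BH3-only protein that binds every survival member. It had 152, 207, 198, 268 and 207 CPM in MAMs and 189, 193, 233, 200.1 and 218 CPM in RAMs. The MAM libraries spread to both sides of the RAM range, with replicate 1 below it and replicate 4 above it. The log2 fold change was 0.00 with a standard error of 0.121 (adjusted p = 0.998 in edgeR's test). Leaving out MAM replicate 4 gave -0.11, and upper-quartile normalization -0.16. The gene lies at chr2:128126038-128162547 on the plus strand.

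Bbc3 encodes PUMA, a BH3-only protein known as a p53 target. It was the least counted of the 10 members, with 175 to 288 counts per MAM library and 98 to 161 per RAM library. Its level was 4.86, 3.84, 3.91, 3.17 and 4.14 CPM in MAMs and 1.68, 2.19, 3.33, 2.71 and 2.62 CPM in RAMs. The groups overlapped, since RAM replicate 3 was above MAM replicate 4, and 4 MAM libraries were above all RAM libraries. The log2 fold change was 0.67 (SE 0.355) and did not pass the threshold in edgeR's test (adjusted p = 0.124). It did pass by limma on log2(FPKM + 1), with an adjusted p of 0.018 and a difference of 0.48. The adjusted p over all 18 alternatives, edgeR, DESeq2 and limma together, ran from 0.018 to 0.243. The gene lies at chr7:16308393-16318205 on the plus strand.

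**Figure D2:**
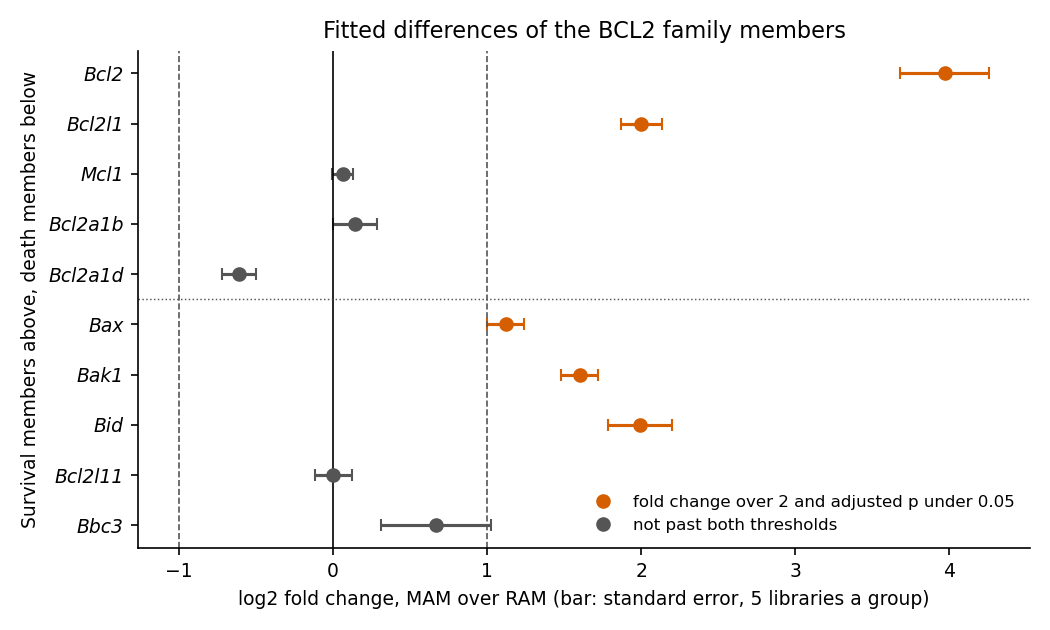
Log2 fold change of MAMs over RAMs for the 10 members (points) with its standard error (bars, 5 libraries a group), survival members above the dotted line and death members below, dashed lines at a 2-fold difference. Bcl2, Bcl2l1, Bax, Bak1 and Bid lie to the right of the upper dashed line, Bax at 0.96 and so left of it under upper-quartile normalization, where Mcl1, Bcl2a1b and Bcl2l11 also changed sign.

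Levels of different members can be set side by side per length, in FPKM. In MAMs Mcl1 was first at 367 ± 28.5 FPKM (SD, n = 5), which ranked it 184 among the 11571 genes tested. Bcl2a1b at 168 ± 18.1 and Bak1 at 164 ± 13.2 FPKM followed, and their library ranges overlapped. After Bax at 99.8 ± 15.04 FPKM came Bcl2a1d at 67.7 ± 9.74, Bcl2l1 at 50.1 ± 5.897 and Bcl2l11 at 44.03 ± 9.49, neighbours whose ranges overlapped in that order. Bid at 16.2 ± 3.02 FPKM overlapped Bcl2 at 11.8 ± 2.27, and Bbc3 was last at 2.92 ± 0.527 FPKM. So Bcl2, with the largest fold change, was ninth in level of the 10 in MAMs.

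In RAMs Mcl1 was again first, at 342 ± 21.8 FPKM, and Bcl2a1b at 151 ± 35.2 and Bcl2a1d at 103 ± 6.700 FPKM came next without overlap. Bak1 at 56.9 ± 11.7, Bax at 47.3 ± 4.23 and Bcl2l11 at 42.6 ± 3.99 FPKM overlapped their neighbours. Bcl2l1 had 12.4 ± 2.203 FPKM, Bid 3.98 ± 1.003 and Bbc3 1.82 ± 0.376. Bcl2 was last at 0.982 ± 0.161 FPKM, so it passed the filter through its MAM level alone.

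**Figure D3:**
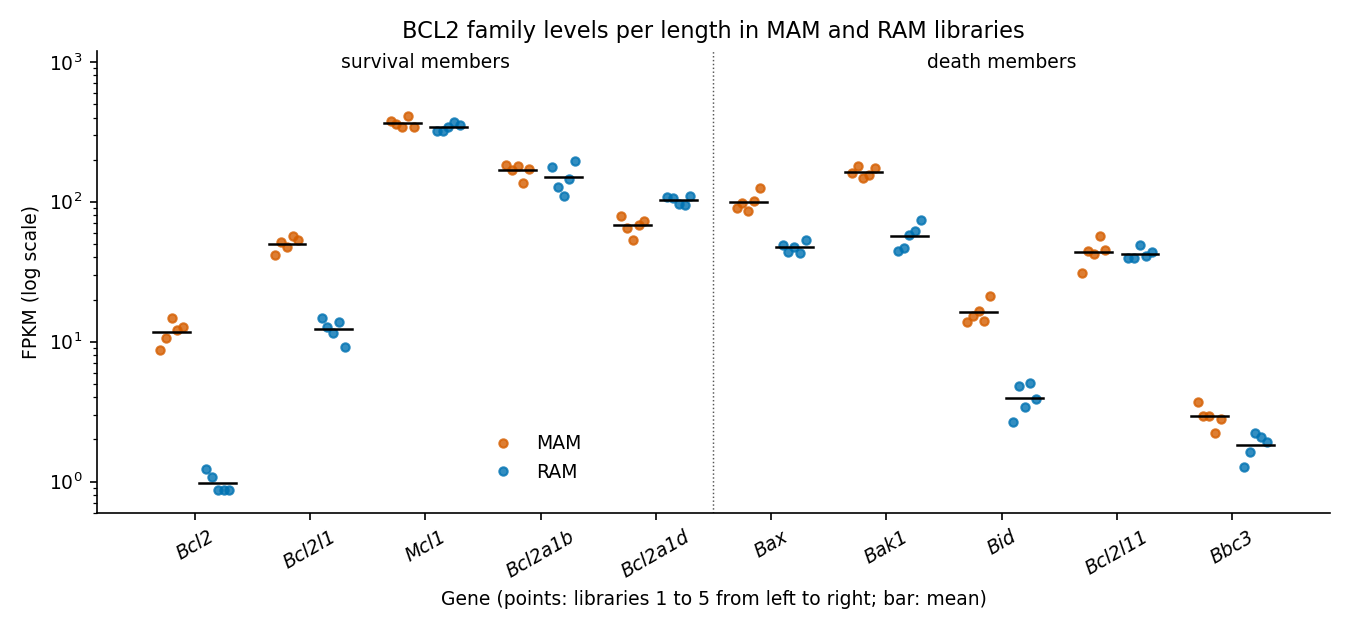
FPKM of the 10 members in each library (points, replicates 1 to 5 from left to right in each group) with the group mean (bar), on a log axis, MAMs in orange and RAMs in blue. Mcl1 sits at the top in both groups, at 344 to 413 FPKM in MAMs and 319.7 to 371 in RAMs, and Bcl2 spans the widest gap between groups, from at most 1.22 to at least 8.77 FPKM.

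Added up per length, the survival members came to 687, 654, 639, 687 and 654 FPKM in MAM replicates 1 to 5 and to 621, 567, 560.3, 628 and 670.4 FPKM in RAM replicates 1 to 5. These sums overlapped between groups, and Mcl1 made up 52.6 to 60.05% of them in MAMs and 51.8 to 60.8% in RAMs. Bcl2 made up 1.28 to 2.32% in MAMs and 0.1298 to 0.196% in RAMs. The death members came to 299, 339, 295, 331 and 369 FPKM in MAMs and to 137, 137, 159.7, 153 and 177 FPKM in RAMs. The death sums did not overlap and were higher in every MAM library.

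Most of that gap lay in the effectors, with 263 ± 25.5 FPKM in MAMs and 104 ± 14.4 in RAMs (SD, n = 5 each). The BH3-only sums overlapped, at 48.3 to 73.6 FPKM in MAMs and 43.6 to 54.6 in RAMs. The survival sum over the death sum was 2.299, 1.93, 2.17, 2.07 and 1.77 in MAMs and 4.53, 4.15, 3.51, 4.11 and 3.79 in RAMs. The ratio was lower in every MAM library than in any RAM library. In CPM, which do not correct for length, its mean was 2.84 in MAMs and 4.303 in RAMs, also without overlap. Without Mcl1 the ratio was 0.828 to 1.04 in MAMs and 1.37 to 2.18 in RAMs by FPKM, and in CPM these groups overlapped. The sums describe transcripts of genes that were chosen by name and carry no test.

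**Figure D4:**
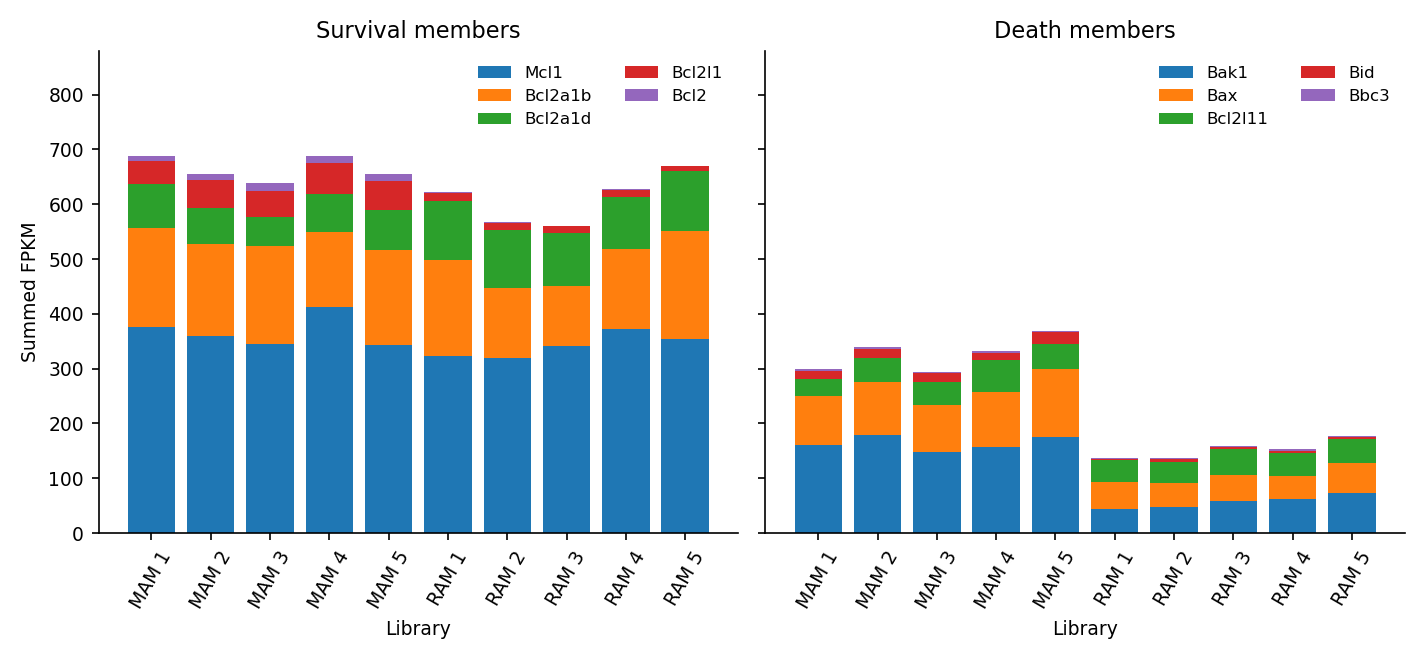
Stacked FPKM of the survival members (left) and of the death members (right) in each of the 10 libraries, on a shared linear axis from 0, each colour 1 gene. The survival bars reach similar heights in both groups, 639 to 687 in MAMs and 560.3 to 670.4 in RAMs, while the death bars reach 295 to 369 in MAMs and 137 to 177 in RAMs.

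Other BCL2 family genes were counted next. Of 16 on the list, 10 were tested, 2 were called higher and 3 lower beside 15.3% and 15.1% of all genes tested, with a median log2 fold change of -0.53 beside -0.02. Bmf, a BH3-only gene, had 4.86 to 20.3 CPM in MAMs against 72.2 to 103 in RAMs, a log2 fold change of -3.08. Pmaip1, which encodes the BH3-only protein NOXA that binds MCL1, had 53.2 to 96.00 CPM in MAMs against 12.5 to 16.3 in RAMs, a log2 fold change of 2.39. The mitophagy receptor Bnip3 was also higher, at 2.64. The groups did not overlap for any of these 3 genes, picked for their large changes, nor for 44.9% of all genes tested. Bnip3l, a close relative of Bnip3 that was chosen after its values were seen, changed the other way at -1.65, and Bcl2a1a is given above. The 6 genes under the filter were Bcl2l10, Bcl2a1c, Bik, Hrk, Bcl2l14 and Bcl2l15.

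Downstream of the pores, 13 genes of the apoptosome and the caspases were all tested, and 1 was called higher and 1 lower, against 15.3% and 15.1% of all genes tested, with a median of -0.16. Cycs, the gene of cytochrome c, was called lower at -1.26 from 2.44 to 4.32 CPM in MAMs against 5.196 to 10.1 in RAMs. It passed the filter through its RAM level alone, at a mean of 1.16 FPKM against 0.596 in MAMs. Cycs has processed pseudogenes, with which it may share reads, and it was not called with limma on log2(FPKM + 1).

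The list of inhibitors of apoptosis gave 2 genes higher and 1 lower of 9 (15.3% and 15.1% over all genes tested), with a median of 0.06. Its Naip genes are listed by family, and no effect of them on apoptosis was measured. Naip1 had 18.7 to 56.3 CPM in MAMs against 0.826 to 7.74 in RAMs (log2 fold change 3.59), and it passed the filter through its MAM level alone. It is related to other Naip genes, so its reads could be split, and their identity was not measured. Naip2, Naip5 and Naip6, named after their values were seen, were at -0.10, -0.92 and -0.58. None of them was called, though Naip5 was at -1.08 under upper-quartile normalization. Birc3, which encodes cIAP2, had a log2 fold change of 1.11 and was under 2-fold at 0.94 with upper-quartile normalization. Birc5, which encodes survivin and is also a gene of mitosis, was lower at -2.12.

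In the death receptor pathway, which feeds into the family through Bid, 5 of 13 tested genes were called higher and 0 lower in edgeR's test, beside 15.3% and 15.1% of all genes tested, and the median was 0.57. DESeq2 also called 5 higher and 0 lower, limma on log2(FPKM + 1) called 4 higher and 0 lower, without Tnfrsf10b, and at an unadjusted p under 0.05 edgeR gave 0 lower. Tnfsf10, the gene of the ligand TRAIL, had 50.2 to 106 CPM in MAMs against 3.85 to 9.58 in RAMs, a log2 fold change of 3.23. Mlkl and Ripk3, which carry out necroptosis, were higher by 3.14 and 2.76. None of these 3 genes, picked in the same way, overlapped between groups, as for 44.9% of all genes tested. Tnfrsf10b, the TRAIL receptor, at 2.33 with overlapping groups, and Cflar, which restrains caspase-8, at 1.31, completed the 5 and were chosen after their values were seen. Tnfrsf10b passed the filter through its MAM level alone. Fasl was not tested.

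Of 22 regulators of the family, 3 were called higher and 2 lower (15.3% and 15.1% over all genes tested), with a median of 0.09. Cdkn1a and Mdm2, targets of p53, were higher at log2 fold changes of 2.06 and 1.98. Cdkn1a had 1711 to 2329 CPM in MAMs against 435 to 509.7 in RAMs, so its groups were apart. Ddit3, the stress factor CHOP, was higher at 1.48. Phlda3, another p53 target, and Stat5a were lower at -1.32 and -1.16, and both were chosen after their values were seen. Trp53 itself, also chosen that way, had 88.3 to 101 CPM in MAMs against 99.1 to 112 in RAMs and did not pass the threshold in edgeR's test (adjusted p = 0.0558).

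**Figure D5:**
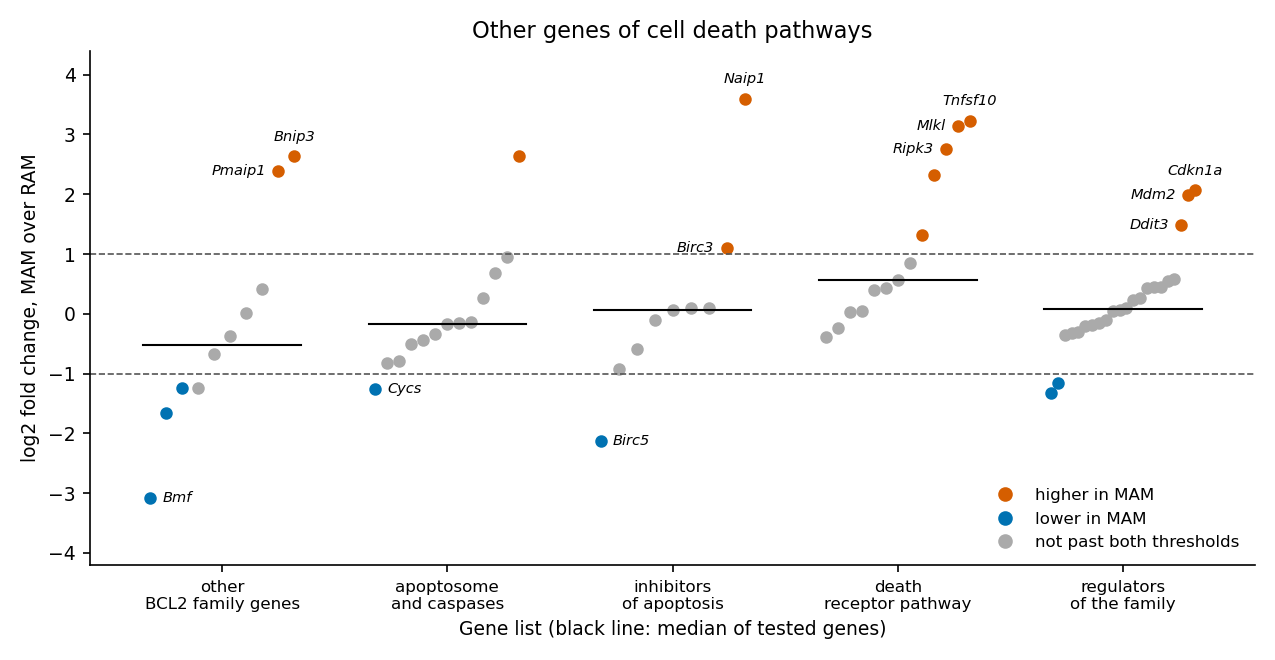
Log2 fold change of MAMs over RAMs for each tested gene of 5 lists (points, orange called higher, blue called lower, grey not called), with the median of each list (black line) and dashed lines at a 2-fold difference. The death receptor list holds 5 called genes above the upper line and none below the lower one, and the other 4 lists have called genes on both sides. Under upper-quartile normalization Birc3 was at 0.94 and so below the upper line.

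Several members are also expressed by lymphocytes and neutrophils, so markers of other cells were read beside them. Fewer cells of a type and less RNA per cell cannot be told apart in sorted bulk samples. For T and NK cells, 8 of 9 markers were counted, and they summed to 11.3, 16.2, 10.9, 10.8 and 17.01 CPM in MAMs and 8.36, 2.27, 2.38, 0.751 and 4.18 CPM in RAMs. The most abundant in MAMs was Cd4, which made up most of the MAM sum, at 6.83 to 14.97 CPM against 0.0209 to 2.09 in RAMs. Of 2 tested, 1 was called higher and 0 lower, beside 15.3% and 15.1% of all genes tested. The gene called, Cd4, may have passed the filter through its MAM level alone. The defining markers Cd3d and Cd3e were at most 1.81 and 3.13 CPM in any MAM library, and these 2 genes were named after their values were seen. The 5 B cell markers summed to 4.27 to 23.1 CPM in MAMs against 2.67 to 16.7 in RAMs, where Cd79a was the most abundant, and these ranges overlapped.

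Neutrophil markers bear on the Bcl2a1 copies. The 7 of them summed to 124, 149, 217, 312 and 217 CPM in MAMs and 157, 151, 202, 153 and 139 CPM in RAMs, and 3 were called higher and 1 lower of 5 tested, beside 15.3% and 15.1% of all genes tested. Their most abundant gene, Csf3r, which macrophages also express, ran from 98.5 to 210.3 CPM in MAMs and was called higher, with 47.4 to 80.6 CPM in RAMs. Other genes of this list were named after their values were seen. S100a8, with 2.42 to 7.58 CPM in MAMs over 1.396 to 2.32 in RAMs, was called higher. So was S100a9, with 0.935 to 10.1 CPM over 0.01502 to 1.06, which may have passed the filter through its MAM level alone. Cxcr2 was called lower, with 1.59 to 18.7 CPM in MAMs against 17.9 to 46.8 in RAMs. Mmp8, with 18.4 to 64.7 CPM in MAMs against 40.3 to 83.2 in RAMs, was at -0.48 and not called. Ly6g was at 0 in all RAM libraries and at most 1.48 CPM in MAMs, and Retnlg was at most 0.235 CPM. MAM replicate 4 had the highest sum of neutrophil and of B cell markers, the lowest Bcl2a1b of the MAM group and the highest Bcl2l11, and the part of other cells in those values was not tested.

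The 6 dendritic cell markers summed to 3.44 to 10.98 CPM in MAMs against 17.2 to 26.00 in RAMs, where Clec9a was the most abundant. Clec9a made up most of the RAM sum, at 12.9 to 24.1 CPM against 0.335 to 1.71 in MAMs. Of 2 tested, Clec9a was called lower and Ccr7, named after its values were seen, was called higher. Each may have passed the filter only through the group where it was higher. Over all genes tested, 15.1% were called lower and 15.3% higher. Epithelial and tumour cell markers summed to 16.6 to 24.6 CPM in MAMs and to 606 to 726 in RAMs. In RAMs Krt19 led at 377 to 492 CPM, before Cdh1 at 107 to 150 and Epcam at 49.2 to 100. Sftpc had 6.74 to 22.6 CPM in RAMs and Scgb1a1 had 9.16 to 11.8. All but Krt19 were named after their values were seen. Whether macrophages or epithelial cells gave these reads was not tested. Of 6 tested, 5 were called lower (15.1% over all genes tested). By edgeR's test, DESeq2 or limma 0 were called higher, with 1 higher at an unadjusted p under 0.05 in edgeR's test (Krt18). Krt8 and Krt18, named after their values were seen, did not follow the sum. Krt8, which was not tested, had 0.615 to 3.31 CPM in MAMs and at most 0.205 in RAMs, and Krt18, which was not called, reached 8.84 CPM in MAM replicate 1 and at most 0.438 in RAMs. The 5 markers of stroma and endothelium, led by Pecam1 in MAMs, summed to 20.4 to 46.7 CPM in MAMs against 1.801 to 10.1 in RAMs. All 3 tested were called higher (15.3% over all genes tested), and Col1a2 and Col3a1 were not tested. Col1a1 had 0.0171 to 0.501 CPM in RAMs and may have passed the filter through its MAM level alone. Col3a1 and Col1a1 exceeded Pecam1 in MAM replicate 1, at 18.0 and 13.1 against 4.43 CPM. These collagen genes were named after their values were seen. All 4 globin genes were listed at 0 in every library. These sums moved with the groups for all but the B cell, neutrophil and globin lists. The T and NK sum moved mainly through Cd4 and the dendritic sum mainly through Clec9a. The part of these sums in the differences of the members was not tested.

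Genes that respond to tissue dissociation also moved with the groups. Egr1 was the most abundant over the 10 libraries together, but Fos, named after its values were seen, had the highest mean in MAMs and Fosb in RAMs. The 7 summed to 869 to 1041 CPM in MAMs against 1311 to 1599 in RAMs, and 3 were called higher and 1 lower, beside 15.3% and 15.1% of all genes tested. Hspa1a, Hspa1b and Atf3 were the genes called higher and Fosb the gene called lower, named after their values were seen. Mcl1 and Bcl2a1 are known as rapidly induced genes, and the part of dissociation in their levels was not tested.

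The tested gene whose log2 CPM over the 10 libraries, centred on their mean, lay nearest to each member was also looked up. The nearest to Bcl2 was Plekho1, at a Euclidean distance of 0.736 and a log2 fold change of 4.13. The nearest to Bcl2l1 was Rell1 (distance 0.333), to Bax Psap (0.365), to Bak1 Hk2 (0.389) and to Bid Eps8 (0.651). For the members that were not called, Mcl1 lay nearest to Usp45 (0.211), Bcl2a1b to Mepce (0.402), Bcl2a1d to Eml4 (0.305), Bcl2l11 to Gpatch8 (0.314) and Bbc3 to Osm (0.514). These distances are descriptions over 10 libraries of 2 groups.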

How the data were processed

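RNA of 5 MAM and 5 RAM samples was sequenced as paired reads of 100 bases. The authors aligned reads with TopHat2 2.0.13 to mm10 (GRCm38) and deposited a raw count per gene and library from HTSeq 0.6.1, and FPKM from Cufflinks 2.2.1, per the submitters' processing notes. A strand setting is not given in the sources used here. Lines naming no gene held 54.6 to 58.3% of each MAM file and 62.2 to 64.1% of each RAM file and were left out. A count of 0 allows up to 3 counts (counting error only).

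The 11571 genes with any count whose mean FPKM reached 1 in either group were tested with edgeR 4.0.16 in R 4.3.3, by the quasi-likelihood test with TMM normalization, group as the only term and Benjamini-Hochberg adjustment over all genes. Standard errors were derived from the log2 fold change and its F statistic. CPM used TMM totals. The fits were tested on simulated data with few changed genes and the same dispersion for every gene. That does not test normalization where many genes differ, as here. Alternatives were DESeq2 1.42.0, RLE and upper-quartile factors, filterByExpr of edgeR, all counted genes, a block for the replicate number, limma 3.58.1 on log2(FPKM + 1) and log2(FPKM + 0.1), summed Bcl2a1 copies and each library left out. The study's methods give each sample as 1 mouse or 1 pool of metastases, and p-values measure the spread between these samples.

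The members and gene lists were chosen with earlier results of these data known. Named genes were the 10 members, up to 3 called genes with the largest change per list, 1 nearest gene per member, and the most abundant gene of each marker list over all libraries. Not every gene that fits this rule is named. Where another gene is named, the text says that it was chosen later. The genes of the sorting markers were named too. Positions came from GENCODE M21 and promoter windows from RefSeq GRCm38.p6, both on the authors' build. Plots were made with matplotlib 3.10.9.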

Additional observations from a re-analysis of the deposited data

Results flagged for a closer look

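Each member was examined in both groups of 5 libraries, in CPM and in FPKM, for a library far from the rest of its group. In MAM replicate 4, Bcl2a1b was at 88.8 CPM while the other 4 MAM libraries held 111 to 119 CPM. The same library had 137 FPKM against 169 to 182 in the others. The gap to the nearest library was 0.734 of the whole range in CPM and 0.712 in FPKM. By chance about 1 in 20 groups shows a gap of this size, and 40 groups were examined, so the 2 found are no more than that share. Both are the same gene in the same library. Without MAM replicate 4 the log2 fold change of Bcl2a1b was 0.21 and did not pass the threshold. Its near-identical copies limit the value in any library.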

How the results depend on the processing

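Of 82 values of members under alternatives other than leaving out a library, 75 kept their direction and their side of the adjusted p. Upper-quartile normalization moved the median gene by -0.165 on the log2 scale. By it Mcl1 was at -0.10, Bcl2a1b at -0.024 and Bcl2l11 at -0.16, none past the adjusted p, and Bax at 0.96 was under 2-fold. With all Bcl2a1 copies summed the value set against Bcl2a1b was -0.33. Bbc3 passed the adjusted p (limma) at 0.48 on log2(FPKM + 1) and 0.66 on log2(FPKM + 0.1), and the cause was not tested.

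Replicate numbers did not pair the samples. Deviations of same-numbered samples from their group means correlated at -1e-04, -0.0366, 0.0294, 0 and 0.0146, and only replicates 3 and 5 of the MAMs matched their own number best. With the replicate block, 1753 genes were called higher and 1773 lower against 1766 and 1745, the calls of the members stayed as they were, and Bcl2l11 was at -0.019.

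Leaving out each library in turn gave 3.83 to 4.33 for Bcl2, 1.91 to 2.06 for Bcl2l1, 1.03 to 1.17 for Bax, 1.53 to 1.71 for Bak1, 1.87 to 2.08 for Bid and -0.112 to 0.0925 for Bcl2l11, and every call of a member was kept. In the apoptosome list, 1 to 2 genes were called higher and 1 to 2 lower. Limma on log2(FPKM + 1) called 0 lower there. Upper-quartile normalization called 1 gene of the inhibitor of apoptosis list higher and 2 lower. In place of FPKM, CPM gave a survival over death ratio of 2.84 in MAMs against 2.05, since CPM are not divided by length. Bbc3 was the least counted member, at 98 to 288 counts per library, and the limits set by depth were not compared between members.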
